A study of Rattus norvegicus with 31 samples.

Results

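The aldo-keto and carbonyl reductase genes described here were Akr1a1, Akr1b1, Akr7a2, Akr7a3, Cbr1, Cbr3 and Cbr4. They were taken as the rows of the count table that carry these symbols, 7 of 26312 genes listed. Of the 7, 6 (all but Cbr1) were also among the 19904 genes whose counts summed to 2 or more. Livers of 31 female Wistar rats of the Crl:WI strain were sequenced after 28 days of daily gavage with 1 or 2 of 3 pesticides, namely the neonicotinoids thiacloprid (THI) and clothianidin (CTD) and the azole fungicide imazalil (IMZ). The question of the design was how each compound, and each binary mixture, changed the liver transcriptome, and whether a mixture differed from what its compounds gave alone. The 8 control rats received only the vehicle, 0.5% carboxymethyl-cellulose at 7.5 ml/kg bw, which all treated rats received as well. The single compounds were THI at 108 mg/kg bw/day (n = 4), IMZ at 93 mg/kg bw/day (n = 4) and CTD at 288 mg/kg bw/day (n = 3), each in an otherwise untreated young adult animal. The mixtures, with 4 rats each, were THI + IMZ at 54 and 46 mg/kg bw/day, THI + CTD at 54 and 134 mg/kg bw/day, and IMZ + CTD at 46 and 135 mg/kg bw/day. Each rat was 1 library.

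Aldo-keto reductases and carbonyl reductases use NADPH to turn aldehydes and ketones into alcohols. In the liver they clear reactive carbonyls that come from lipid peroxidation, sugars and xenobiotics, and several of them are known targets of NRF2, the transcription factor that responds to electrophiles through antioxidant response elements. AKR1A1 is the broad aldehyde reductase, AKR1B1 is aldose reductase of the polyol pathway, and AKR7A2 and AKR7A3 are aflatoxin aldehyde reductases, of which the rat liver enzyme encoded by Akr7a3 is known for its induction by antioxidants. CBR1 is the main cytosolic carbonyl reductase of quinones and prostaglandins, CBR3 is its close relative with a narrower range of substrates, and CBR4 is a mitochondrial subunit of the ketoacyl reductase in fatty acid synthesis.

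Akr7a2 and Akr7a3 lie near each other on chromosome 5 of the rat reference GRCr8, with 3 genes listed between them, all pseudogenes or unnamed loci. Their starts are shown because most of the changes described here were in these 2 genes. The sequences are those of RefSeq for the 250 bases before and the 50 bases from the annotated start, and the capitals mark the bases from the start. Akr7a2 is at chr5:156835339-156835638 on the plus strand and Akr7a3 at chr5:156876471-156876770 on the plus strand. Aligned to each other, 47.8% of 318 columns were identical.
Akr7a2: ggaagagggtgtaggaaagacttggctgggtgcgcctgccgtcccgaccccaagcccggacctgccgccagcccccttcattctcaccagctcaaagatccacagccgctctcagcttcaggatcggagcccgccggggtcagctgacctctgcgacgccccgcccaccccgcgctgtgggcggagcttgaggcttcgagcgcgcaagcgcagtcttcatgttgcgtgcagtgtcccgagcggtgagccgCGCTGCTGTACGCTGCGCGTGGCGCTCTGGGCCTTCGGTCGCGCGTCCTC
Akr7a3: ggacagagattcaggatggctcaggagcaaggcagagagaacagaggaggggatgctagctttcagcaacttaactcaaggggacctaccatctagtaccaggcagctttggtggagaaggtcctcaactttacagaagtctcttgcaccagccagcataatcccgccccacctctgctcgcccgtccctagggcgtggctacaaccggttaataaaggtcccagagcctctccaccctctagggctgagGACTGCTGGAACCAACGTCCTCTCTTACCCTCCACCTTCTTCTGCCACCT

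Cbr1 and a neighbour listed in RefSeq as Cbr1l1 have nearly the same start, which is shown because Cbr1 held no counts. Only 1 gene lies between them on chromosome 11, and Cbr3 follows further along. In the alignment 285 of 301 columns were identical (94.7%), and the capitals mark the bases that differ. The last 84 bases, which include the 50 from the start, were the same in both. Cbr1 is at chr11:46346155-46346454 and Cbr1l1 at chr11:46362345-46362644, both on the plus strand of GRCr8. Cbr1 and Cbr3 shared 46.2% of 320 columns, so that the near identity was between Cbr1 and Cbr1l1.
Cbr1: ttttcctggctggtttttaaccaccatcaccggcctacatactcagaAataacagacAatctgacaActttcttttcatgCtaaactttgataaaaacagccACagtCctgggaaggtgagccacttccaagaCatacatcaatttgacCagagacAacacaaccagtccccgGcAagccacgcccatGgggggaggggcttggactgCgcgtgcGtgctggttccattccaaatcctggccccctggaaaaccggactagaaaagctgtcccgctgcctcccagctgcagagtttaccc
Cbr1l1: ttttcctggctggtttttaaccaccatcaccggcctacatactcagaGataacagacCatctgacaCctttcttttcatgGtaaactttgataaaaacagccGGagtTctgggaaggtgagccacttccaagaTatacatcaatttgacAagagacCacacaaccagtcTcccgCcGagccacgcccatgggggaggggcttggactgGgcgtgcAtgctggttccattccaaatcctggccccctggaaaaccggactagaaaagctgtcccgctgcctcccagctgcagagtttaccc

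A promoter was listed for 6 of the 7 genes, all but Akr1b1. The core of the antioxidant response element, searched as TGACNNNGC on both strands, matched in none of the 6, and in 12.1% of all 33469 promoters of this length. The AP-1 site TGACTCA, which shares its first letters with that core, matched in none of the 6 and in 4.63% of all. These letters were not in these windows, which says nothing about sites elsewhere.

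The control libraries held 32.7 M to 101.2 M counts and the treated ones 31.8 M to 54.8 M. The summed level of 8 hepatocyte markers ran from 146327 to 203326 CPM (the counts of a gene per 1 M counts of its library, scaled with TMM) in the control rats and from 128296 to 210702 in the treated rats. Marker genes of several cell types differed between groups. The 4 red blood cell genes summed to 18.8 to 61.5 CPM in the control rats, 152 to 184 in CTD and 26.2 to 209 in THI + CTD, and 4 of 4 and 1 of 4 of them were up-regulated. The 8 genes of dividing cells summed to 6.03 to 16.1 CPM in the control rats, 41.3 to 151 in CTD and 16.05 to 49.6 in THI + CTD, with 8 of 8 and 7 of 8 up-regulated, beside 5 of 8 in THI + IMZ and 7 of 8 in IMZ + CTD. Of 6 Kupffer cell markers 2 were down-regulated in CTD and 2 in THI + CTD. Of the 8 hepatocyte markers 1 was down-regulated in CTD (Tat) and 2 in THI + CTD (Tat and Serpina1), while Apoa1 was up-regulated in THI + IMZ. Col3a1 was up-regulated in CTD and Col1a1 in THI + CTD, each 1 of 7 fibroblast markers, which summed to 224 to 394 CPM in the control rats, 359 to 494 in CTD and 330 to 478 in THI + CTD. Most of the fibroblast sum was Col3a1, with means of 252 CPM in the control rats, 366 in CTD and 307 in THI + CTD. Kdr, 1 of 6 endothelial markers (239 to 329 CPM in the control rats, 203 to 259 in CTD and 218 to 264 in THI + CTD), was down-regulated in both. The 4 pancreas markers summed to 194 to 468 CPM in the control rats, and without overlap to 59.3 to 127 in THI, 17.4 to 137 in CTD, 57.4 to 181 in THI + IMZ and 21.3 to 145 in THI + CTD. Most of that sum was Cpa1, called down in CTD and THI + CTD, while Prss1 and Pnlip were at 0 in all control rats. In a bulk liver sample, fewer cells of a type and less RNA per cell cannot be told apart.

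Of the 6 reductase genes tested, Akr7a3 and Cbr3 changed in CTD, and Akr7a3 and Akr7a2 changed in THI + CTD. Akr7a3 was up-regulated 1.77-fold in CTD and 2.33-fold in THI + CTD, and Akr7a2 1.32-fold in THI + CTD. Cbr3 was down-regulated in CTD to 0.377 of the control level. No reductase gene passed the test in THI, IMZ, THI + IMZ or IMZ + CTD, where 3, 2, 2 and 0 of the 6 had an unadjusted p under 0.05, beside 8.68%, 8.08%, 11.1% and 12.8% of all genes. The share of all genes called by the edgeR quasi-likelihood test with an adjusted p under 0.05 was 0.543% in THI, 0.251% in IMZ, 12.7% in CTD, 1.18% in THI + IMZ, 4.39% in THI + CTD and 1.46% in IMZ + CTD. The median log2-fold change of the 6 genes was 0.09 in THI, 0.10 in IMZ, 0.02 in CTD, 0.10 in THI + IMZ, 0.11 in THI + CTD and 0.08 in IMZ + CTD, and that of all genes tested lay between -0.07 and -0.01. With DESeq2 in place of edgeR, 1 reductase gene, Akr7a3, was called in each of THI, IMZ and THI + IMZ and none in IMZ + CTD. In these 4 treatments DESeq2 also called more genes in all, 199, 150, 435 and 567, beside 108, 50, 235 and 290 by edgeR.

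**Figure D1:**
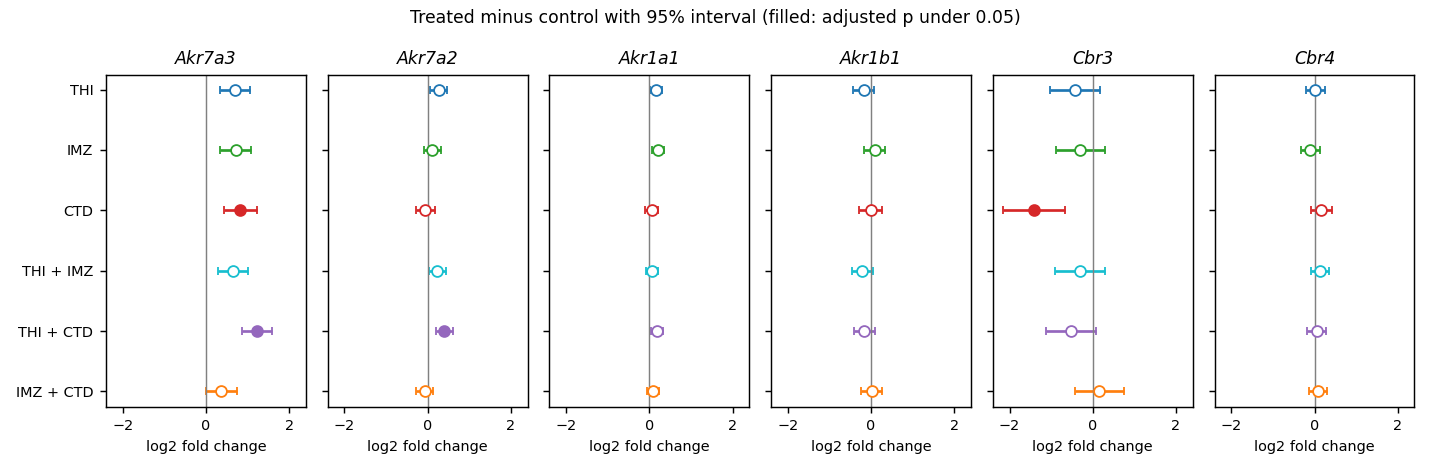
The log2-fold change of each reductase gene (x axis, treated minus control) in the 6 treatments (y axis), with its 95% interval. Filled points passed an adjusted p of 0.05, which were Akr7a3 in CTD and THI + CTD, Akr7a2 in THI + CTD and Cbr3 in CTD.

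Akr7a3 had the highest levels in THI + CTD. The 8 control rats had 27.7 to 44.0 CPM with a median of 33.6. The rats on THI + CTD had 49.6, 72.0, 98.9 and 101 CPM, and the 3 rats on CTD had 51.8, 59.0 and 72.0 CPM. All 7 of these rats lay above every control, and the SD was 24.3 CPM in THI + CTD and 5.75 CPM in the controls. The log2-fold change was 1.22 ± 0.18 (SE, adjusted p = 7.25e-05) in THI + CTD and 0.82 ± 0.20 (adjusted p = 0.00426) in CTD. Without CTD replicate 1, its highest rat, the change in CTD was 0.68 and no longer passed (adjusted p = 0.0606). Marker genes of red blood cells, dividing cells and Kupffer cells were called in the same groups, as given above. So were single markers of fibroblasts, endothelium and pancreas. The part of these markers in the changes of Akr7a3 was not tested.

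In the other treatments Akr7a3 did not pass the test, although most rats lay above the controls. The rats on THI had 49.1, 54.6, 57.7 and 62.8 CPM, and those on IMZ had 48.4, 51.5, 57.6 and 68.7 CPM. Neither group overlapped with the control rats. In THI + IMZ 3 rats had 57.4, 60.7 and 67.0 CPM while the fourth, replicate 2, had 31.8 CPM and lay within the controls. In IMZ + CTD 3 rats had 33.3, 37.7 and 40.6 CPM, within the control range, and replicate 2 had 66.5 CPM. The log2-fold changes were 0.70 ± 0.18 in THI (SE, adjusted p = 0.0735), 0.71 ± 0.18 in IMZ (adjusted p = 0.0901), 0.65 ± 0.18 in THI + IMZ (adjusted p = 0.0686) and 0.37 ± 0.18 in IMZ + CTD (adjusted p = 0.391).

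Whether Akr7a3 counted as a DEG in THI, IMZ and THI + IMZ depended on the fit. The DESeq2 Wald test gave adjusted p-values of 0.0182, 0.0200 and 0.0207, and a fit of only the groups compared gave 0.00806 for THI and 0.0117 for IMZ. Without THI + IMZ replicate 2 the change in THI + IMZ was 0.84 (adjusted p = 0.0117), and it then also passed in THI (0.0337) and IMZ (0.0437). It passed as well in THI and THI + IMZ without Control replicate 4 (adjusted p = 0.0437 and 0.0426), IMZ + CTD replicate 2 (0.0385 and 0.0377) or THI + CTD replicate 1 (0.0391 and 0.0405). In order of mean level (CPM ± SD) the groups were Control (34.4 ± 5.75), IMZ + CTD (44.5 ± 14.9), THI + IMZ (54.2 ± 15.5), THI (56.1 ± 5.74), IMZ (56.6 ± 8.96), CTD (60.9 ± 10.3) and THI + CTD (80.3 ± 24.3). No neighbours in this order differed past the threshold, the smallest adjusted p being 0.391 for Control and IMZ + CTD.

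**Figure D2:**
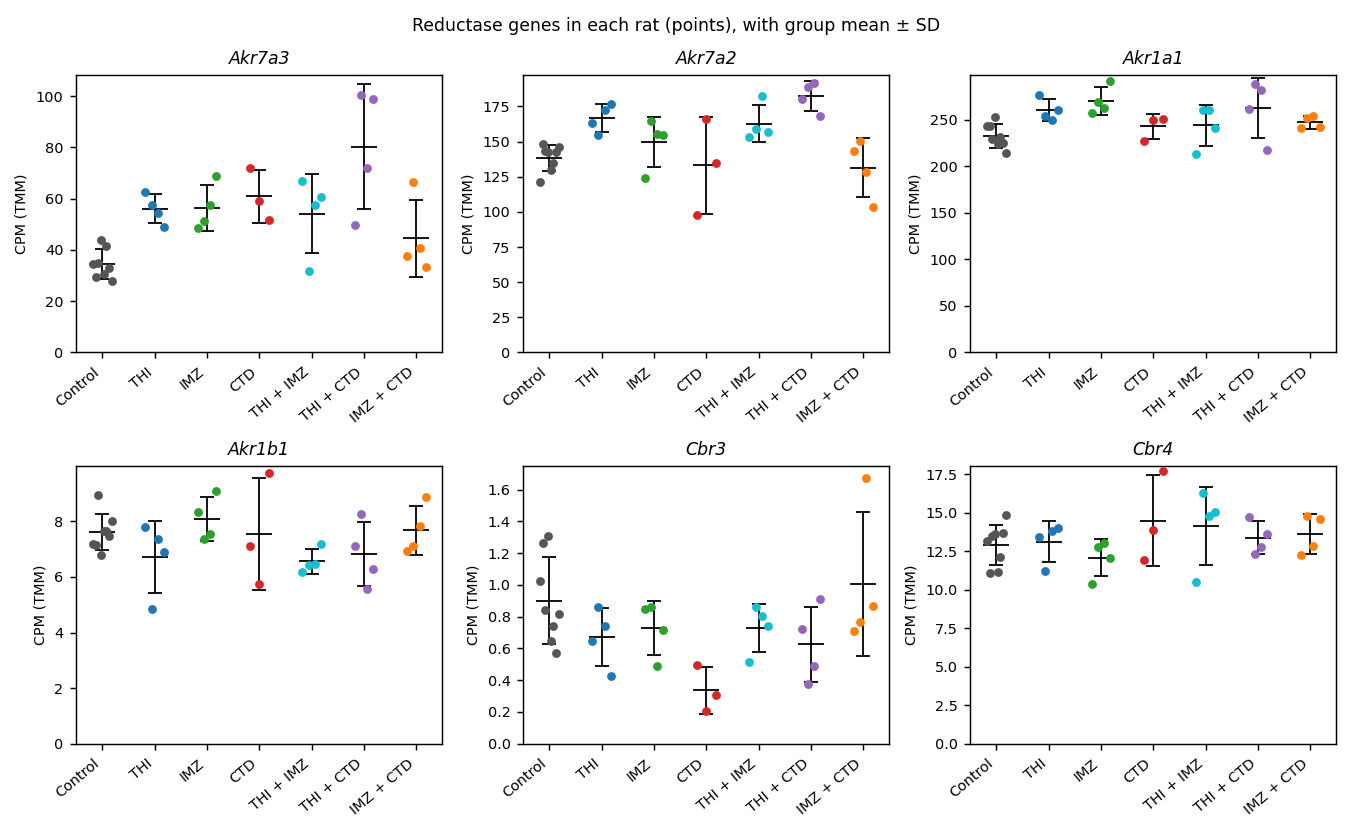
The level of each reductase gene in every rat (y axis, CPM scaled with TMM, from 0) by group (x axis), with the mean as a bar and the SD as whiskers. All THI + CTD and CTD rats lie above the controls for Akr7a3, and all 3 CTD rats lie below the controls for Cbr3.

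Akr7a2 had smaller log2-fold changes than Akr7a3 in all 6 treatments. The control rats had 121 to 149 CPM with a median of 143. The 4 rats on THI + CTD had 168, 180, 189 and 192 CPM, all above the controls, and the log2-fold change was 0.40 ± 0.10 (SE, adjusted p = 0.0167). The call was lost without THI + CTD replicate 2 (adjusted p = 0.0602) or replicate 3 (0.0770). The part of the markers that moved in THI + CTD was not tested.

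THI and THI + IMZ also did not overlap with control for Akr7a2, but did not pass. The rats on THI had 155, 163, 173 and 176 CPM, with a log2-fold change of 0.27 ± 0.10 (SE, adjusted p = 0.393). The rats on THI + IMZ had 153, 157, 159 and 182 CPM, with 0.23 ± 0.10 (adjusted p = 0.372). All 3 groups that held THI lay above the control range, a description of 12 rats that share their controls. Ranges apart from control, in either direction, were found for 1.42%, 1.46% and 3.96% of all genes in THI, THI + IMZ and THI + CTD. Of the 4 rats on IMZ, 3 also lay above every control. The rats on IMZ had 124, 155, 156 and 165 CPM, those on CTD 97.8, 135 and 166 CPM, and those on IMZ + CTD 103, 128, 144 and 151 CPM. These groups overlapped with control, and the sign in CTD and in IMZ + CTD turned when 1 rat was left out (log2-fold changes of -0.06 and -0.07). The order of mean levels (CPM ± SD) was IMZ + CTD (132 ± 20.8), CTD (133 ± 34.3), Control (138 ± 9.35), IMZ (149.8 ± 17.9), THI + IMZ (163 ± 13.2), THI (167 ± 9.70) and THI + CTD (182 ± 10.6), and no neighbours in it passed the test.

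The number of Akr7a3 counts per Akr7a2 count was 0.250 ± 0.046 (SD, n = 8) in the control rats, from 0.190 to 0.309. In THI + CTD it was 0.443 ± 0.143 (n = 4), with a range of 0.275 to 0.588, and in CTD 0.491 ± 0.212 (n = 3), with a range of 0.354 to 0.736. The means in THI (0.338), IMZ (0.379), THI + IMZ (0.335) and IMZ + CTD (0.336) lay between these and the controls. Across the 31 rats the log2 CPM of the 2 genes had a Pearson correlation of 0.42, and of 0.06 once group means were removed, which are descriptions over rats that share treatments.

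Akr1a1, the aldehyde reductase that also serves ascorbate synthesis in rodents, stayed within a narrow range. The control rats had 214 to 253 CPM with a median of 230, and the highest rat of all, on IMZ, had 292 CPM. The 4 rats on IMZ had 257, 262, 269 and 292 CPM and did not overlap with control, but the log2-fold change of 0.21 ± 0.07 did not pass (SE, adjusted p = 0.287). It was 0.16 ± 0.07 in THI (adjusted p = 0.497) and 0.17 ± 0.07 in THI + CTD (adjusted p = 0.171). In THI + CTD 3 rats had 262, 282 and 289 CPM and the fourth 218 CPM, and without that rat, replicate 4, the change was 0.25 and passed (adjusted p = 0.0335). The remaining changes were 0.06 in CTD, 0.07 in THI + IMZ and 0.09 in IMZ + CTD. By mean level (CPM ± SD) the order was Control (233 ± 12.8), CTD (243 ± 13.3), THI + IMZ (244 ± 22.3), IMZ + CTD (247 ± 6.70), THI (261 ± 11.7), THI + CTD (263 ± 31.9) and IMZ (270.2 ± 15.4). No neighbours among these passed the test. All 95% intervals for Akr1a1 lay between -0.10 and 0.36 on the log2 scale.

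Akr1b1, which reduces glucose to sorbitol, had 6.80 to 8.96 CPM in the control rats with a median of 7.57. In CTD the 3 rats spread from 5.76 over 7.13 to 9.75 CPM, beyond the controls on both sides. In THI + IMZ the 4 rats had 6.18, 6.42, 6.45 and 7.20 CPM, 3 of them below all controls, with a log2-fold change of -0.21 ± 0.13 (SE, adjusted p = 0.564). The changes in the other groups were -0.18 in THI, 0.09 in IMZ, -0.01 in CTD, -0.16 in THI + CTD and 0.01 in IMZ + CTD, with adjusted p-values from 0.533 to 0.996. Mean levels (CPM ± SD) ran in the order THI + IMZ (6.56 ± 0.441), THI (6.73 ± 1.30), THI + CTD (6.82 ± 1.16), CTD (7.55 ± 2.03), Control (7.61 ± 0.660), IMZ + CTD (7.68 ± 0.876) and IMZ (8.09 ± 0.788), with no neighbours that passed the test. All groups overlapped with control, and all intervals lay within -0.47 and 0.34.

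Cbr1 was listed at 0 counts in all 31 libraries, and a count of 0 allows up to 3 counts, 0.0289 to 0.0963 CPM by library, for counting error only. The count table holds the symbol in capitals on a pair of further rows. One of them, ENSRNOG00000049911, had 7 to 61 counts per library with a median of 17, and its mean was 0.394 CPM in the control rats and 0.336 to 0.475 CPM in the treatments. It passed the test in 0 of 6 comparisons by edgeR (0 at an unadjusted p under 0.05). The other row, ENSRNOG00000047848, had 6 counts in all, in 3 libraries. The counts are of uniquely mapped reads, so reads that fit near copies alike would not count for either, and whether this touched Cbr1 was not tested. The level of Cbr1 in these livers is therefore uncertain.

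Cbr3 fell in CTD. The control rats had 0.568 to 1.31 CPM with a median of 0.828, from 30 to 106 counts each. The 3 rats on CTD had 0.207, 0.308 and 0.494 CPM, which were 8, 10 and 19 counts. All 3 lay below every control, and the log2-fold change was -1.41 ± 0.36 (SE, adjusted p = 0.00878). Without CTD replicate 2, the lowest rat, it was -1.15 and no longer passed (adjusted p = 0.0809). Markers given above were also called in CTD, and their part in the fall of Cbr3 was not tested.

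The mixtures with CTD held less of that compound and gave other values for Cbr3. The rats on THI + CTD had 0.379, 0.490, 0.723 and 0.911 CPM, of which 2 were below all controls, with a log2-fold change of -0.53 ± 0.30 (SE, adjusted p = 0.366). The rats on IMZ + CTD had 0.707, 0.766, 0.867 and 1.68 CPM, with 0.16 ± 0.29 (adjusted p = 0.847), and the sign turned to -0.21 without replicate 3, the rat at 1.68 CPM. In THI, IMZ and THI + IMZ the changes were -0.42, -0.30 and -0.30, and each of these groups overlapped with control. The mean levels (CPM ± SD) were, from the lowest, CTD (0.336 ± 0.146), THI + CTD (0.626 ± 0.238), THI (0.671 ± 0.184), IMZ (0.728 ± 0.171), THI + IMZ (0.729 ± 0.151), Control (0.901 ± 0.275) and IMZ + CTD (1.00 ± 0.452). The step from CTD to THI + CTD had an adjusted p of 0.277, and the others were larger.

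Cbr4 differed from control in none of the treatments past the threshold. The control rats had 11.1 to 14.9 CPM with a median of 13.3. The group with the largest SD was CTD with 11.9, 13.9 and 17.7 CPM and a log2-fold change of 0.17 ± 0.12 (SE, adjusted p = 0.416). In THI + IMZ the 4 rats had 10.5, 14.8, 15.1 and 16.3 CPM and a change of 0.13 ± 0.11 (adjusted p = 0.674). The other 4 changes lay between -0.10 and 0.08, and all 95% intervals lay within -0.32 and 0.41. From low to high the means (CPM ± SD) were IMZ (12.1 ± 1.19), Control (12.9 ± 1.33), THI (13.1 ± 1.31), THI + CTD (13.4 ± 1.07), IMZ + CTD (13.6 ± 1.28), THI + IMZ (14.2 ± 2.53) and CTD (14.5 ± 2.93), and none of these steps passed the test.

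Counted by ranges, 2 of the 6 genes did not overlap with control in THI (Akr7a2 and Akr7a3), 2 in IMZ (Akr1a1 and Akr7a3), 2 in CTD (Akr7a3 and Cbr3), 1 in THI + IMZ (Akr7a2), 2 in THI + CTD (Akr7a2 and Akr7a3) and 0 in IMZ + CTD. Of all genes tested, 1.42%, 1.27%, 10.8%, 1.46%, 3.96% and 2.62% had such ranges in these comparisons. Over the 36 pairs of neighbours in the order of levels, 6 for each gene, 0 were called by edgeR and 0 by DESeq2, and 1 had an unadjusted p under 0.05. Of the same pairs over all genes, 0.263% were called.

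Each mixture was set against the sum of the log2-fold changes of its compounds, weighted by dose, with 0.5 for THI and IMZ and 0.47 for CTD. No reductase gene was called off this sum by edgeR or DESeq2 in any of the 3 mixtures, and 0, 2 and 1 of 6 had an unadjusted p under 0.05 in THI + IMZ, THI + CTD and IMZ + CTD, beside 6.46%, 9.66% and 14.3% of all genes. Called with an adjusted p were 0.0151%, 0.286% and 1.16% of all genes. Akr7a3 in THI + CTD was at 1.22 against a sum of 0.74, a difference of 0.48 ± 0.18 (SE, 95% interval 0.11 to 0.86, adjusted p = 0.367), while in IMZ + CTD it was at 0.37 against 0.74, a difference of -0.37 ± 0.19 (interval -0.76 to 0.01, adjusted p = 0.369). Akr7a2 in THI + CTD lay 0.29 ± 0.10 above its sum (interval 0.08 to 0.50, adjusted p = 0.317). Cbr3 in IMZ + CTD lay 0.97 ± 0.30 above its sum of -0.81 (interval 0.36 to 1.58, adjusted p = 0.102). In THI + IMZ the largest difference was 0.17 ± 0.11, for Cbr4 (adjusted p = 0.855).

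**Figure D3:**
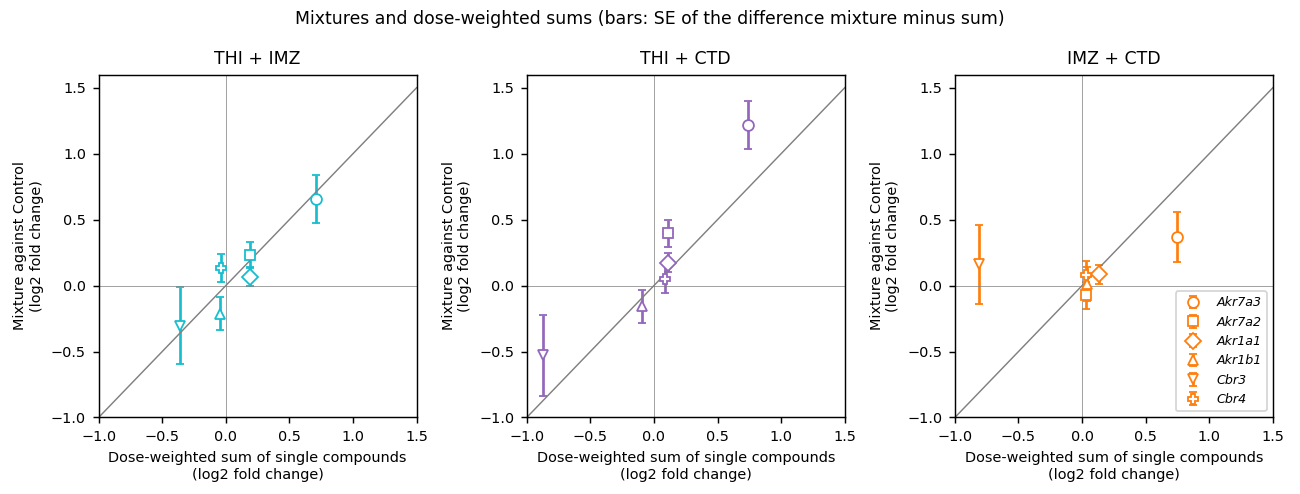
The log2-fold change of each reductase gene in a mixture (y axis) against the dose-weighted sum of its single compounds (x axis), 1 panel for each mixture, with the SE of the difference as bars and the line where both are equal. Akr7a3 lies above the line in THI + CTD and below it in IMZ + CTD, and no gene passed the test of the difference.

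The 6 treatments were also compared with each other, in 15 pairs and 90 tests over the 6 genes, with p-values adjusted over all genes of a pair. Of these, 2 were called, beside 1.77% of all tests over all genes. The smallest unadjusted p were those of Akr7a2 and Akr7a3 in IMZ + CTD against THI + CTD, which were not called. The differences there were -0.47 ± 0.12 and -0.85 ± 0.21 (SE, adjusted p = 0.0938 for both). Cbr3 was higher in IMZ + CTD than in CTD, by 1.57 ± 0.40 on the log2 scale (SE, adjusted p = 0.0171), a comparison in which 5.53% of all genes were called, and the call was lost without CTD replicate 2 (adjusted p = 0.105), CTD replicate 3 (0.0513) or IMZ + CTD replicate 3 (0.0855) and in a fit of only these groups (0.128). Akr7a2 was higher in THI + CTD than in CTD, by 0.45 ± 0.13 (adjusted p = 0.0485, 2.67% of all genes called), and this call was lost in the fit of only these groups (adjusted p = 0.290), without CTD replicate 1, where the difference was 0.27 (0.339), and in 21 of the 31 fits that left out 1 rat in all. CTD was given at 288 mg/kg bw/day alone and at 134 or 135 in the mixtures, so the CTD doses differ in both called pairs.

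Of the other aldo-keto reductases, 14 of 17 listed were tested. In THI + CTD 3 were up-regulated and 1 was down-regulated, in CTD 2 and 1, in THI and in THI + IMZ 1 each was up-regulated, and in IMZ and IMZ + CTD none was called (3 and 4 at an unadjusted p under 0.05, the smallest being that of Akr1c13 in both, at -0.43 and -0.35). Akr1b8, an aldose reductase-like gene, went from 2.27 CPM in the control rats to 8.38 in CTD and 9.51 in THI + CTD, with log2-fold changes of 1.89 ± 0.36 (SE, adjusted p = 0.000453) and 2.07 ± 0.33 (adjusted p = 0.000264). Akr1cl rose in THI, THI + IMZ and THI + CTD by 1.22, 1.00 and 1.28, from 22.0 CPM. Akr1d1, the steroid reductase of bile acid synthesis, rose by 0.54 in CTD and 0.49 in THI + CTD, while Akr1c13 fell by 0.58 and by 0.53 there. Many Akr1c genes are near copies of each other, so the split of reads among them is uncertain. The median log2-fold change of the 14 ran from -0.07 in IMZ to 0.30 in THI + IMZ.

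Among short-chain dehydrogenases and reductases, the family of the carbonyl reductases, 19 rows of 18 listed symbols were tested. Hsd11b1, which regenerates active glucocorticoid, rose by 2.18 ± 0.42 in CTD (SE, adjusted p = 0.000457), by 1.99 in THI + CTD and by 1.68 in IMZ + CTD. Rdh11, a retinal reductase, rose by 0.31 in CTD and by 0.31 in THI + CTD, and Dcxr, the xylulose reductase, fell by 0.35 in CTD. In THI, IMZ and THI + IMZ none passed the test by edgeR (5, 3 and 7 at an unadjusted p under 0.05), where the smallest p was that of Dhrs1 at 0.41, a row of Dhrs7 at 1.82 and Hsd11b1 at 1.40. That row of Dhrs7 was low, with means of 0.920 CPM in the control rats and 3.30 in IMZ. The other row of Dhrs7, at 12.2 CPM in the control rats, was at -0.11 in IMZ. The medians of this list ran from 0.02 to 0.15.

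Known NRF2 targets were set beside the reductases, 12 of 15 listed being tested. Of these 4 were up-regulated in THI, 2 in IMZ, 7 in CTD, 4 in THI + IMZ, 5 in THI + CTD and 0 in IMZ + CTD. None was called as down-regulated. In IMZ + CTD 4 had an unadjusted p under 0.05, among them Hmox1, which lay below control. Gclm, the modifier subunit of the ligase of glutathione synthesis, rose in the first 5 treatments, by 1.04 ± 0.11 in CTD (SE, adjusted p = 8.91e-08) and 0.87 ± 0.10 in THI + CTD (adjusted p = 1.69e-06). Gsr, glutathione reductase, rose in the same 5 by 0.40 to 0.59. Me1, malic enzyme, rose by 2.23 in CTD, 2.08 in THI + CTD and 1.27 in THI. Ephx1, the microsomal epoxide hydrolase, rose by 1.27 in THI, 1.31 in CTD, 1.24 in THI + IMZ and 1.596 in THI + CTD. The paper also places EPHX1 in its network of the xenobiotic receptor CAR, so this gene is not particular to the NRF2 list. Slc7a11, the cystine transporter, had the largest change of the list in CTD, 2.63 ± 0.80 (adjusted p = 0.0269), from 0.0985 to 0.630 CPM. Gclc, the catalytic subunit of that ligase, rose by 0.53 in CTD and 0.64 in THI + CTD, and Txnrd1, thioredoxin reductase, by 0.51 in CTD and 0.50 in THI + IMZ. In IMZ + CTD the smallest p was that of Gsr, at 0.31 (adjusted p = 0.0770). Nqo1, the quinone reductase often used as a reporter of NRF2, was not called in any group. Hmox1 was not called either, at -0.35 in THI + CTD and -0.26 in IMZ + CTD (edgeR, adjusted p = 0.104 and 0.364). In the other treatments Hmox1 was at 0.05 to 0.29. The median log2-fold change of the 12 was 0.54 in CTD, 0.61 in THI + CTD and 0.14 in IMZ + CTD. Of 9 listed target genes of the xenobiotic receptors CAR and PXR, 6 were tested. Of these 5 were up-regulated in THI, IMZ, CTD and IMZ + CTD and 6 in THI + IMZ and THI + CTD. The gene not called was Por, at 0.71 in THI, 0.59 in IMZ, -0.39 in CTD and -0.40 in IMZ + CTD. Abcc3, Aldh1a1, Cyp2b2 and Cyp3a23/3a1 are among the top up-regulated genes the paper selected from these same livers, so their calls add no separate evidence. The largest changes were those of Cyp2b1, from 5.20 in IMZ + CTD to 9.02 in THI, and Cyp2b2, from 3.65 to 5.96, a pair of close relatives among which reads may be split, and Aldh1a1 rose by 1.49 to 2.47.

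**Figure D4:**
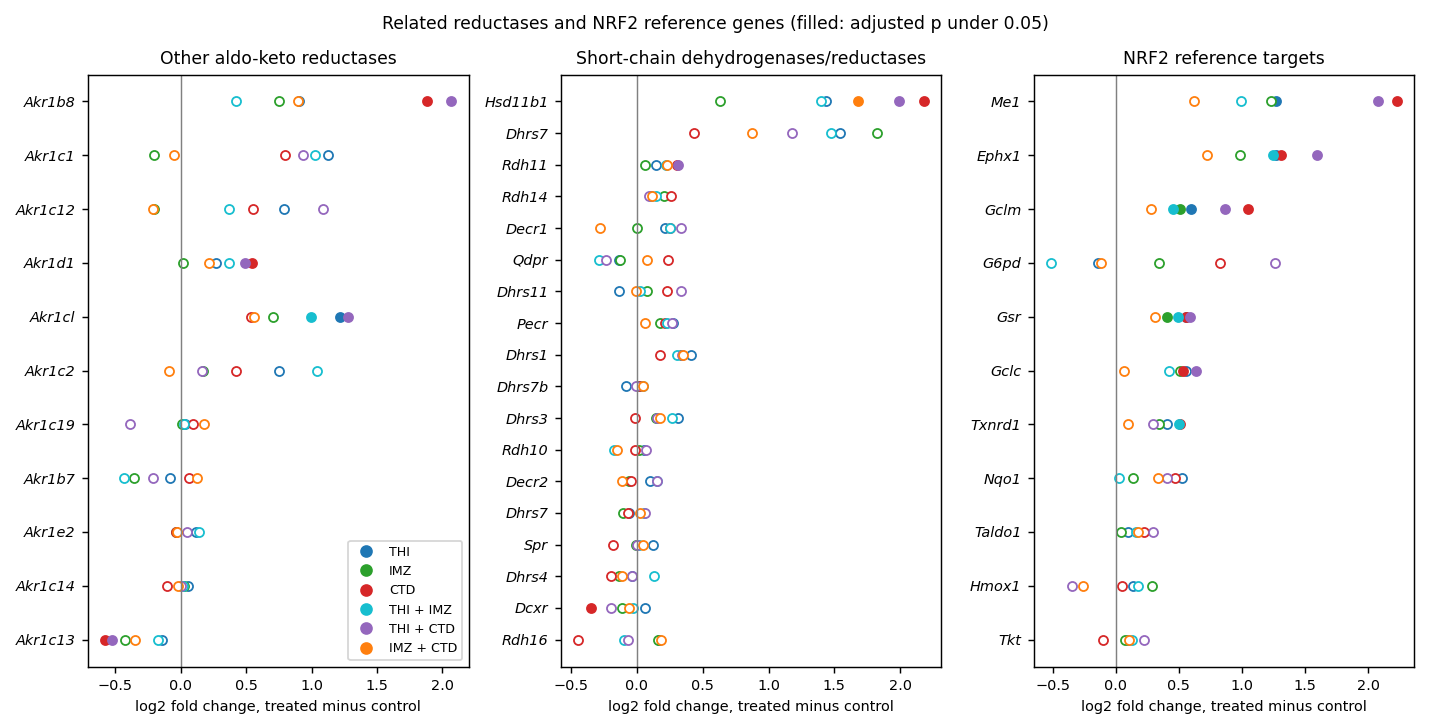
The log2-fold change (x axis, treated minus control) of other aldo-keto reductases, short-chain dehydrogenases and NRF2 targets (y axis), 1 point for each treatment, filled where the adjusted p was under 0.05, for 11 of 14, 18 of 19 and 11 of 12 rows with a mean of at least 0.1 CPM in the control rats. Akr1b8, Hsd11b1 and Me1 lie farthest to the right in CTD and THI + CTD.

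The genes whose level over the 31 rats was most like that of each reductase were looked up among 10871 genes, as a description with no test. For Akr7a3 these were Panx2, a pannexin channel (Pearson's r of 0.85), Gstm1, a glutathione transferase (0.84), and Ephx1 (0.83), with 0.67, 0.75 and 0.59 within groups. Gstm1 was called in all 6 treatments with log2-fold changes from 0.96 in IMZ + CTD to 1.40 in THI + CTD. Panx2 was called in 4 treatments and Ephx1 in 4, in neither case in IMZ or IMZ + CTD. Reads of Gstm1 may be shared with other members of its family. The paper's network of CAR holds EPHX1 and also GSTM5, the human gene it matches to rat Gstm1. The other nearest genes were Ola1 for Akr1a1 (0.73), Tlr2 for Akr1b1 (0.76), Chchd10 for Akr7a2 (0.78), Sergef for Cbr3 (0.75) and Lias for Cbr4 (0.76). The 6 reductases were not compared with each other in this search. Ranked by Spearman correlation 9 of the 18 nearest genes remained, and by the 7 group means 1. Between members the largest correlations were 0.46 for Akr1a1 with Akr7a2 and 0.42 for Akr7a2 with Akr7a3, and all share the libraries and treatments.

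**Figure D5:**
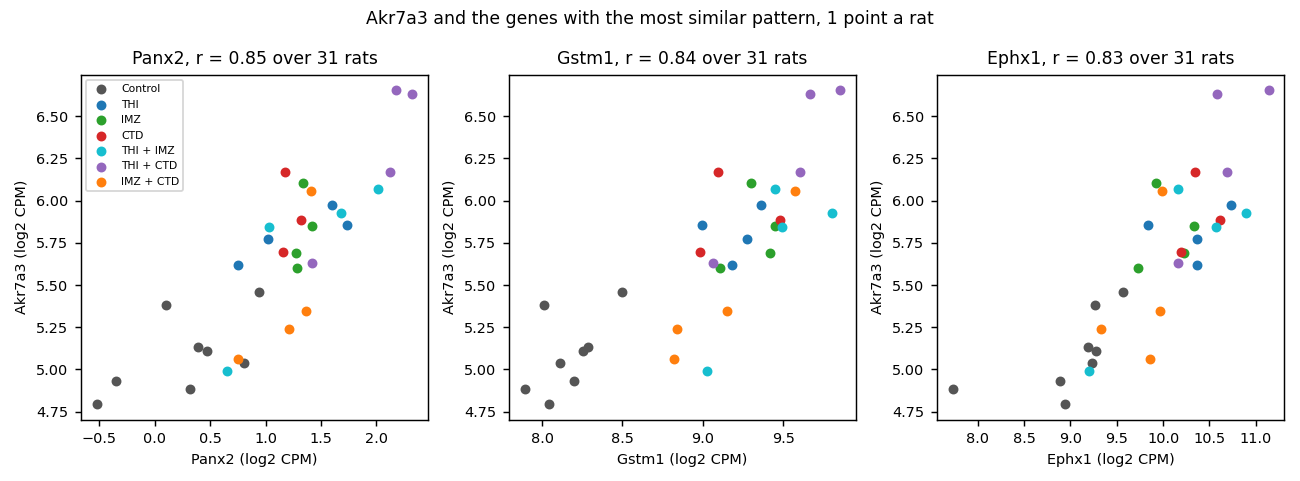
Akr7a3 (y axis, log2 CPM) against Panx2, Gstm1 and Ephx1 (x axes, log2 CPM), 1 point for each of 31 rats, coloured by group. The control rats lie at the lower left and the highest THI + CTD rats at the upper right, and 1 THI + IMZ rat and 3 IMZ + CTD rats lie at the level of the controls for Akr7a3.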

How the data were processed

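Total RNA of 31 rat livers had been sequenced as stranded libraries. The authors trimmed adapters with Skewer, mapped reads to Rnor_5.0 and counted uniquely mapped reads per gene with STAR 2.5.2b, and deposited these counts for 26312 genes, from 31.8 M to 101.2 M per library, without normalization. The annotation release is not given in the sources used here. The authors also deposited a normalized signal for 19904 genes, each count divided by a size factor of DESeq2. The counts were used for all tests. On the scale of the normalized signal all 36 log2-fold changes of the reductases had the same sign and lay within 0.0093 of the edgeR values. Columns were assigned to the 7 groups from the sample labels, and each rat was an independent replicate.

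Genes whose counts summed to 2 or more were tested with edgeR 4.0.16 in R 4.3.3 (TMM, quasi-likelihood test, 1 model over the 7 groups), with contrasts against control, between treatments and against the dose-weighted sum. The Benjamini-Hochberg adjustment was made over all genes, with 0.05 as the threshold. Log2 CPM used a prior count of 2. Alternatives were DESeq2 1.42.0 (Wald test, size factors), other filters, a newer quasi-likelihood, fitting only the groups compared, a replicate block, exact dose ratios and leaving out each rat. The contrasts between treatments that are named were chosen after the data had been seen. The pipeline was tested on simulated data. The reductases, gene lists and marker lists were chosen with earlier results of these data known. From each list, genes past the threshold were named by size, at most the 2 largest and the 2 smallest per treatment, in a list with none the gene with the smallest p, and the 3 genes nearest to each reductase by Pearson correlation. Nqo1 and Hmox1 were named after their values were seen. Promoters were those of RefSeq (GRCr8), aligned with biopython 1.88. Positions in Rnor_5.0 are not given, as no annotation of that build was used here.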

Additional observations from a re-analysis of the deposited data

Results flagged for a closer look

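Of 36 sets of 4 to 8 rats tested for a sample far from the others, 1 was flagged, where chance flags about 1 in 20. In IMZ + CTD, Cbr3 was at 1.68 CPM in replicate 3 (57 counts) and at 0.707 to 0.867 CPM in the other 3 rats.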

How the results depend on the processing

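Of 1368 log2-fold changes of single reductases against control under the alternatives, 1331 kept their sign and their side of the threshold, 5 no longer passed, 15 came to pass and 17 changed sign. Of the 2 calls between treatments, Akr7a2 in THI + CTD against CTD was lost without 21 of 31 rats in turn, in the fit of only these groups and with the size factors of DESeq2, and Cbr3 in IMZ + CTD against CTD without 3 of 31 and in the fit of only these groups. With the DESeq2 Wald test 1 reductase was called in each of THI, IMZ and THI + IMZ, and the genes called over the whole table were 199 (108 with edgeR), 150 (50) and 435 (235) there, 1386 (873) in THI + CTD and 567 (290) in IMZ + CTD, with 54, 174 and 603 off the sum in THI + IMZ, THI + CTD and IMZ + CTD (3, 57 and 230). In a fit of only the groups compared 1 reductase was called in THI and 1 in IMZ, where 93 genes were called in all. With filterByExpr 391 genes were off the sum in IMZ + CTD. The cause of these differences was not tested.

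Replicate numbers were not taken to pair the rats. Over 78 same-numbered pairs the deviations correlated from -0.28 to 0.40 with a median of 0.033, and 16 were above 0.1. No values for rats of unlike number stand beside these, so they do not decide whether the numbers paired the rats. With a replicate block the genes called were 45, 23, 1571, 53, 348 and 80 in THI, IMZ, CTD, THI + IMZ, THI + CTD and IMZ + CTD, and 6 were off the sum in THI + IMZ. In THI + CTD 1 reductase, Akr7a3, was still called with the block, while Akr7a2 was not (adjusted p = 0.0740). The block turned the sign of Akr1a1 (-0.0036) and Akr1b1 (0.012) in CTD and of Cbr3 in IMZ + CTD (-0.14).

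Leaving out 1 rat at a time, the reductases called ran from 1 to 2 in CTD, 1 to 3 in THI + CTD and 0 to 1 in THI, IMZ and THI + IMZ. Genes called in all ran from 67 to 120 in THI, 28 to 61 in IMZ, 1470 to 2573 in CTD, 143 to 297 in THI + IMZ, 450 to 969 in THI + CTD and 98 to 366 in IMZ + CTD, and those off the sum from 1 to 9, 30 to 75 and 66 to 285 in the 3 mixtures in the order above. Log2-fold changes that crossed 0 ran from -0.24 to 0.15 for Akr1b1 in CTD, -0.068 to 0.060 for Akr1b1 in IMZ + CTD, -0.25 to 0.12 for Akr7a2 in CTD, -0.15 to 0.019 for Akr7a2 in IMZ + CTD, -0.21 to 0.30 for Cbr3 in IMZ + CTD, -7.07e-05 to 0.29 for Cbr4 in CTD, -0.00032 to 0.088 for Cbr4 in THI + CTD and -0.011 to 0.087 for Cbr4 in THI.

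CTD rests on 3 rats, and the paper marks this dose group for animals killed when moribund. The common biological coefficient of variation was 19.4%, and Cbr3 had 8 to 106 counts per library.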
